A study of Mus musculus with 18 samples.

Results

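The RNA-seq libraries of the *M*-cKO and *F*-cKO cortices were compared directly with each other, so that genes differing between loss of an m6A writer and loss of an m6A eraser could be read without the wild-type libraries in the test. These were 6 of the 18 libraries of the series, 3 from *M*-cKO and 3 from *F*-cKO. All 55153 genes of the count table were considered, and 16802 passed the filter on low counts and were tested. *M*-cKO embryos carried floxed *Mettl3* and *Emx1*-Cre, and *F*-cKO embryos carried floxed *Fto* and *Emx1*-Cre. The strain was C57BL/6 according to the labels, the floxed lines had a mixed background according to the methods, and the cerebral cortex was taken at embryonic day 15.5. The Cre transgene was thus common to both groups. *Emx1*-Cre acts in the progenitors of the dorsal telencephalon and the glutamatergic neurons and glia they produce, so interneurons that migrate in from the ganglionic eminences, blood vessels, meninges and blood cells keep the floxed gene. Wild-type Ctrl libraries (3, same strain and age, no Cre named) took no part in the calls reported below and were used to scale and place levels. The labels call the libraries biological repeats, but whether each came from 1 embryo or a pool is not given, so the *P* values measure only the spread between these libraries, and genotype cannot be told apart from mouse line or litter.

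N6-methyladenosine (m6A) is an internal methyl mark on messenger RNA. It is placed by a nuclear complex whose catalytic subunit is *Mettl3*, held by *Mettl14* and directed to RNA by accessory proteins such as *Wtap*, *Virma*, *Rbm15* and *Zc3h13*. *Fto* and *Alkbh5* can remove methyl marks, and reader proteins, among them the Ythdf proteins that promote decay of marked RNA in the cytoplasm, bind the mark. The embryonic cortex holds radial glia, which divide along the ventricle and give rise to intermediate progenitors and then to neurons of the deep and the upper layers.

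Read counts per library were between 19773777 and 22592406 in *M*-cKO and between 20401843 and 21302488 in *F*-cKO, libraries correlated at 0.971 to 0.991 across genes, and the biological coefficient of variation was 0.103. *M*-cKO replicate 1 held almost no RNA of *Xist*, which silences an X chromosome in female cells, at a CPM (count divided by the scaled library size, the unit of all levels given) of 0.0884, whereas the other knockout libraries held 144 to 1020 CPM. All 6 held RNA of the Y-linked *Ddx3y*, from 9.40 to 36.9 CPM, and none of 5 sex-linked markers was called different between the groups, with 1 higher in *M*-cKO without *M*-cKO replicate 3. *Hbb-y*, an embryonic globin, was at 48.6 CPM in *F*-cKO replicate 3 and at 1.90 to 12.6 CPM in the other 5 libraries.

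The targeted genes were examined first. *Mettl3* (chr14:52294841-52308741, mm10) stood at 43.8, 40.2 and 42.5 CPM in the libraries labelled *M*-cKO and at 31.8, 31.3 and 27.0 CPM in *F*-cKO. The gene-level count of the deleted gene was thus higher in the libraries labelled *M*-cKO, without overlap (log2 fold change 0.48 ± 0.09, SE; edgeR adjusted *P* = 0.00301), and Ctrl libraries held 30.0, 33.1 and 26.1 CPM. This count also takes reads from exons outside the deleted ones, and *Mettl3* overlaps *Tox4* in the annotation, so in RNA-seq it does not check the label. In Ribo-seq, which counts footprints of translating ribosomes, *Mettl3* was at 28.2, 26.6 and 26.8 CPM in *M*-cKO and at 38.8, 42.3 and 36.4 CPM in *F*-cKO, the opposite order (log2 fold change -0.53 ± 0.17).

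*Fto* (chr8:91313367-91668433) stood at 178, 160 and 175 CPM in *M*-cKO and at 42.3, 99.3 and 32.2 CPM in *F*-cKO. *F*-cKO replicate 2 kept 74.2% of the Ctrl mean, compared with 31.7% and 24.0% in the other *F*-cKO libraries. The groups did not overlap (log2 fold change 1.56 ± 0.31, edgeR adjusted *P* = 0.00512), and the log2 difference was 2.20 without *F*-cKO replicate 2. In Ribo-seq the *F*-cKO libraries were at 40.4, 25.7 and 43.0 CPM and the *M*-cKO libraries at 279, 269 and 238 CPM, and the library numbered 2 was the lowest of the 6. Because RNA-seq *F*-cKO replicate 2 stood apart in its targeted gene, counts are also given without it. Across all genes, however, the spread fell most without *F*-cKO replicate 3. The biological coefficient of variation was 0.088 without *F*-cKO replicate 3 and 0.113 without *F*-cKO replicate 2, beside 0.103 with all libraries.

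Of the 16802 genes tested, 4599 (27.4%) were called different at an edgeR adjusted *P* below 0.05. Levels were called higher in *M*-cKO than in *F*-cKO for 2196 genes (13.1% of those tested) and lower for 2403 (14.3%). Most differences were small. The median difference of the called genes was 1.35-fold, with a median log2 fold change of 0.48 for the higher and -0.39 for the lower genes, and 278 higher and 256 lower genes differed by more than 2-fold. The 3 libraries of one group lay wholly above or below those of the other for 4479 of the called genes, and for 43.7% of all genes tested. Without *F*-cKO replicate 2, 1442 genes were called higher (8.38%) and 1325 lower (7.70%), and 2694 of the 4599 genes kept their call with the same sign. Of all genes tested, 10.2% were called higher and 8.69% lower without *M*-cKO replicate 1, 9.17% and 8.7% without *M*-cKO replicate 2, 10.1% and 9.54% without *M*-cKO replicate 3, 13.5% and 12.9% without *F*-cKO replicate 1, and 11.7% and 10.7% without *F*-cKO replicate 3. Counts in the gene lists that follow are to be read beside these shares, which are 13.1% higher and 14.3% lower with all libraries, and a range after a list median gives its lowest and highest value with 1 library left out. DESeq2 called 4161 of the 4599 genes in the same direction.

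**Figure D1:**
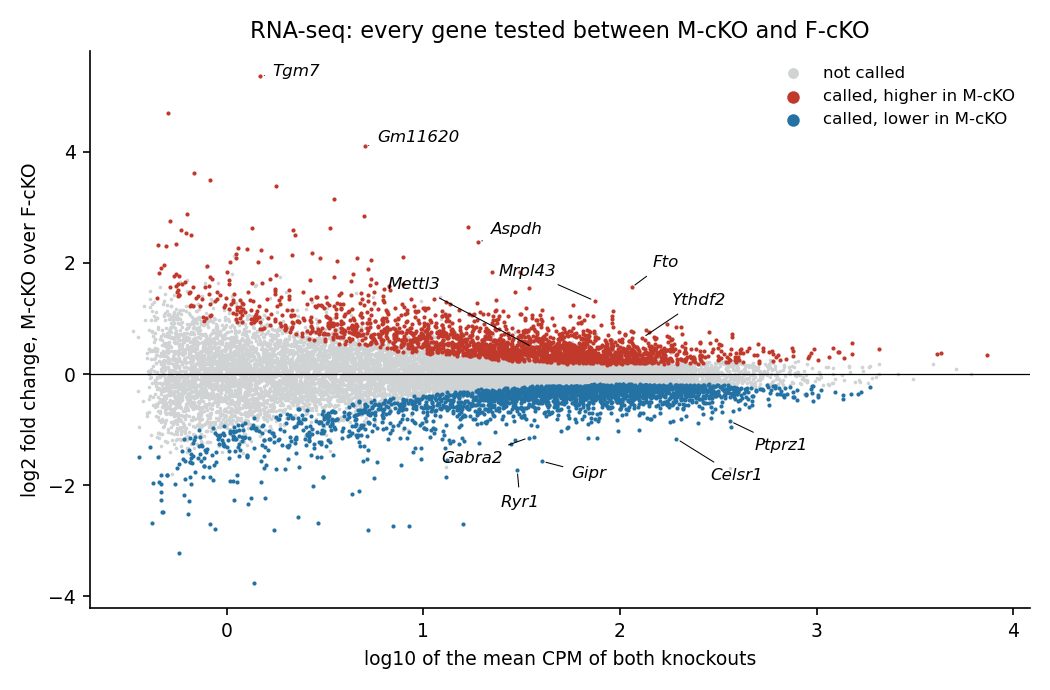
Each point is 1 of the 16802 genes tested by RNA-seq. The horizontal axis gives the log10 of the mean CPM of the knockout libraries and the vertical axis the log2 fold change of *M*-cKO over *F*-cKO, with red and blue points marking the 2196 genes called higher and the 2403 called lower in *M*-cKO and grey points the rest; most called genes lie within 1 log2 unit of 0.

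The gene with the smallest *P* was *Aspdh* (chr7:44465435-44467751), which encodes a putative aspartate dehydrogenase. Its levels were 33.2, 33.0 and 29.2 CPM in *M*-cKO and 5.76, 6.30 and 6.24 CPM in *F*-cKO (log2 fold change 2.37 ± 0.11, edgeR adjusted *P* = 4.33e-06). Ctrl libraries, at 5.65, 6.08 and 6.12 CPM, lay with *F*-cKO. *Mrpl43*, a protein of the large mitochondrial ribosomal subunit whose gene overlaps *Twnk*, was at 106, 100 and 112 CPM in *M*-cKO and at 45.6, 41.2 and 40.3 CPM in *F*-cKO (1.32 ± 0.07). *Tpgs1*, a subunit of the enzyme complex that adds glutamate chains to tubulin, was at 80.3, 76.0 and 86.3 CPM in *M*-cKO and at 33.9, 35.9 and 31.9 CPM in *F*-cKO (1.25 ± 0.08). *Imp3*, which acts in the processing of ribosomal RNA, was at 84.9, 82.9 and 82.3 CPM in *M*-cKO compared with 41.0, 37.5 and 42.8 CPM in *F*-cKO (1.03 ± 0.07). In each of these genes all *M*-cKO libraries lay well above both other groups, and the Ctrl libraries were close to *F*-cKO. The same order held for *Asb8*, which carries a SOCS box (1.07 ± 0.07), for *Ckap4*, a membrane protein of the endoplasmic reticulum (0.92 ± 0.06), and for the zinc finger gene *Zkscan17*, which overlaps the noncoding *4933439C10Rik* (0.91 ± 0.07).

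Among genes of low level, the pseudogene *Gm11620* was at 9.06, 11.0 and 8.45 CPM in *M*-cKO and at 0.387, 0.394 and 0.845 CPM in *F*-cKO (log2 fold change 4.10 ± 0.28, edgeR adjusted *P* = 3.22e-05). *Col20a1*, which encodes a collagen, was at 5.30, 7.22 and 6.45 CPM in *M*-cKO and at 0.339, 0.936 and 0.845 CPM in *F*-cKO (3.14 ± 0.30). *Tgm7*, a transglutaminase, was at 3.36, 2.91 and 2.41 CPM in *M*-cKO, and in *F*-cKO it had no count in 1 library and 0.0985 and 0.0939 CPM in the others. A fitted fold change so close to 0 depends on the prior count, so none is given for *Tgm7*. *Slc17a9*, the vesicular nucleotide transporter, was at 1.77, 1.55 and 1.23 CPM in *M*-cKO and at 0.0968, 0.0985 and 0.188 CPM in *F*-cKO. Ctrl libraries were at or below 0.859 CPM for all 4 genes, well under *M*-cKO.

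The genes lower in *M*-cKO with the smallest p were *Gabra2* and *Gipr*. *Gabra2* (chr5:70958392-71095849), which encodes a subunit of the ionotropic GABA receptor, was at 22.8, 20.8 and 21.3 CPM in *M*-cKO and at 48.5, 47.4 and 46.1 CPM in *F*-cKO (log2 fold change -1.14 ± 0.08, edgeR adjusted *P* = 3.22e-05). *Gipr* (chr7:19156063-19170248), the receptor of the gut hormone GIP, was at 19.7, 21.2 and 20.1 CPM in *M*-cKO and at 60.3, 68.6 and 50.6 CPM in *F*-cKO (-1.57 ± 0.11). For both genes the Ctrl libraries were higher still, from 51.7 to 78.9 CPM and from 71.7 to 114 CPM. *Cdk6*, a kinase of the G1 phase, was at 38.0, 38.0 and 34.1 CPM in *M*-cKO and at 66.9, 72.8 and 73.5 CPM in *F*-cKO (-0.96 ± 0.07), and here the Ctrl libraries, at 45.2 to 56.5 CPM, lay between the knockouts. The transcription factor *Hivep2* (-0.87 ± 0.07), the secreted protein *Ccbe1* (-1.54 ± 0.12), the adhesion molecule *Clmp* (-0.74 ± 0.06) and the receptor phosphatases *Ptprk* (-0.87 ± 0.07) and *Ptprz1* (-0.85 ± 0.07) completed the 8 genes of the naming rule, which takes only genes whose groups do not overlap.

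**Figure D2:**
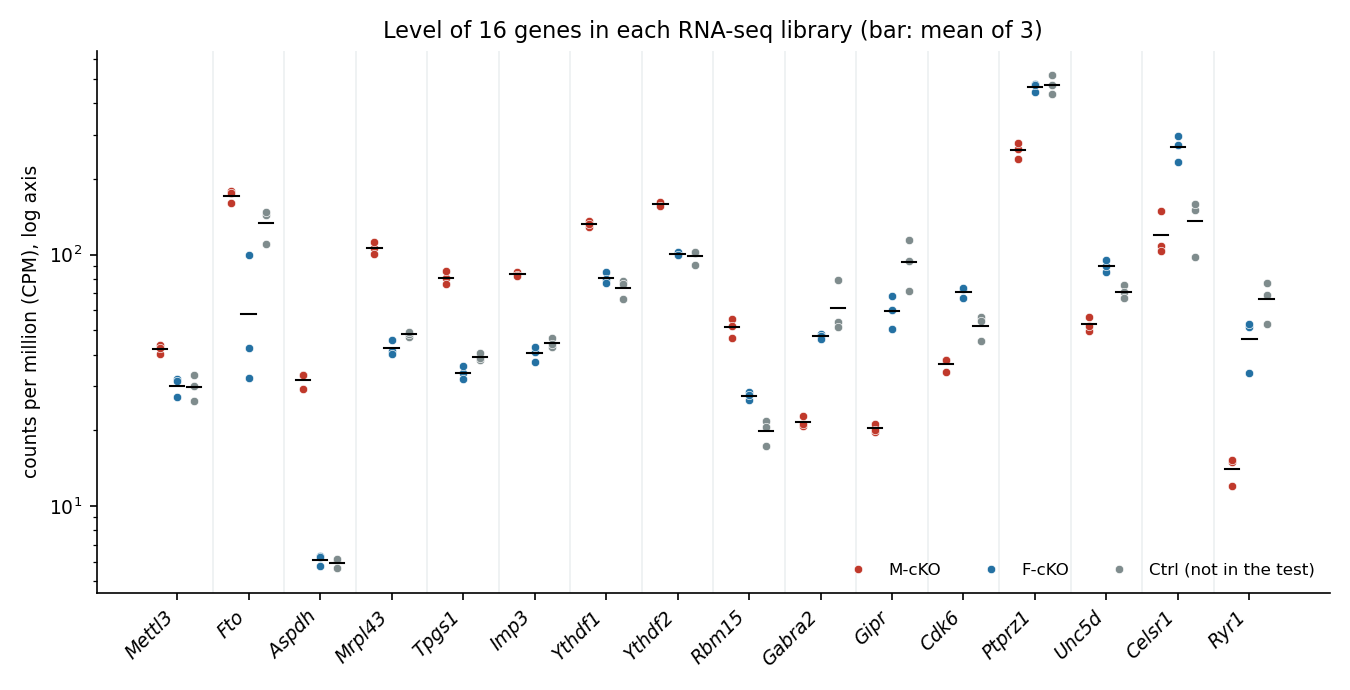
Levels of 16 genes in every RNA-seq library, in CPM on a log axis, for *M*-cKO (M), *F*-cKO (F) and Ctrl, which was not in the test; points are libraries and bars the mean of 3. *M*-cKO and *F*-cKO do not overlap for any of the 16 genes, *F*-cKO replicate 2 at 99.3 CPM of *Fto* stands apart from the other *F*-cKO libraries, and the *Mettl3* count is highest in *M*-cKO.

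The 8 genes with the largest fold among those lower in *M*-cKO were all noncoding transcripts, pseudogenes or genes without a RefSeq type. *E230020A03Rik* was at 0.486, 0.451 and 0.363 CPM in *M*-cKO and at 1.74, 2.31 and 5.07 CPM in *F*-cKO (log2 fold change -2.81 ± 0.44, edgeR adjusted *P* = 0.00161). The long noncoding *C030018K13Rik* was at 0.309, 0.201 and 0.136 CPM compared with 1.06, 1.33 and 2.16 CPM (-2.79 ± 0.44). Both were low in every *M*-cKO library, and *F*-cKO replicate 3 was the highest of the 6 libraries for each. Over all long noncoding RNAs tested, 40 of 825 were higher and 121 lower (19.5% called, beside 27.4% of all genes), with a median log2 fold change of -0.19. Over all genes tested 13.1% were higher and 14.3% lower. The lower share of the long noncoding RNAs was near that of all genes, and their higher share was beneath it. Of 13779 protein-coding genes, 2042 were higher and 2081 lower (29.9% called, median 0.01). Of 770 pseudogenes, 50 were higher and 27 lower (10% called, median 0.12), both under the shares of all genes.

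Components of the m6A machinery differed between the knockouts beyond the targeted genes. Of 9 genes of the writer list, *Mettl3* among them, 6 were higher in *M*-cKO (66.7%) and 2 lower (22.2%), with a median log2 fold change of 0.34, beside a median of -0.00 over all genes tested. *Rbm15*, an adaptor that recruits the complex to RNA, was at 55.6, 52.1 and 46.6 CPM in *M*-cKO and at 26.3, 28.4 and 27.6 CPM in *F*-cKO (log2 fold change 0.90 ± 0.08, edgeR adjusted *P* = 0.000109). Its paralogue *Rbm15b* was at 379, 368 and 373 CPM in *M*-cKO and at 252, 252 and 225 CPM in *F*-cKO (0.61 ± 0.07, edgeR adjusted *P* = 0.000228). No library of one group reached the other for either gene, and the Ctrl libraries lay below *F*-cKO for both. *Slc16a4* overlaps *Rbm15* and *Dcaf1* overlaps *Rbm15b* in the annotation, and the strand used in counting is not given. *Wtap* (0.34 ± 0.08), the E3 ligase *Cbll1* (0.35 ± 0.10) and *Mettl16*, a separate methyltransferase (0.26 ± 0.07), were also higher, and the scaffold *Virma* stood at -0.00 ± 0.07. The zinc finger subunit *Zc3h13* was lower in *M*-cKO, at 112, 114 and 128 CPM compared with 146, 148 and 146 CPM (-0.32 ± 0.07), as was *Mettl14*, the partner of *Mettl3* (-0.21 ± 0.07). Without *F*-cKO replicate 2, *Mettl16* and *Mettl14* did not pass (edgeR adjusted *P* = 0.0607 and 0.0958). Higher calls were 4 without *M*-cKO replicate 1, and lower calls were 1 whichever library was left out.

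Among 12 readers, 2 were called higher (16.7%, near the 13.1% of all genes tested) and 3 lower (25.0%, beside 14.3%) in *M*-cKO, with a median of -0.18. *Ythdf2* was at 160, 162 and 156 CPM in *M*-cKO and at 100, 102 and 99.9 CPM in *F*-cKO (log2 fold change 0.65 ± 0.06, edgeR adjusted *P* = 8.16e-05). *Ythdf1* was at 128, 136 and 132 CPM in *M*-cKO and at 85.4, 79.8 and 77.3 CPM in *F*-cKO (0.70 ± 0.06, edgeR adjusted *P* = 9.47e-05). For both, the Ctrl libraries were near or below the *F*-cKO level. The third paralogue, *Ythdf3*, stood at -0.19 ± 0.07 and was not called. The lower readers were *Fmr1*, the RNA-binding protein lost in fragile X syndrome (-0.45 ± 0.07), *Hnrnpa2b1* (-0.35 ± 0.06) and *Igf2bp3* (-0.32 ± 0.09), of which *Igf2bp3* did not pass without *F*-cKO replicate 2 (edgeR adjusted *P* = 0.0866). The other 7 readers had log2 fold changes between -0.25 and -0.01, and 5 readers were called lower without *F*-cKO replicate 1. *Alkbh5*, the other eraser, was at 94.3, 94.1 and 96.4 CPM in *M*-cKO and at 88.2, 93.4 and 87.8 CPM in *F*-cKO (0.07 ± 0.06) and was not called.

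Radial glia markers were more often lower than higher in *M*-cKO, with 9 of 17 lower (52.9%, beside 14.3% of all genes tested), 2 higher (11.8%, near the 13.1% of all genes) and a median log2 fold change of -0.27. *Tnc*, an extracellular matrix protein of radial glia whose gene overlaps *8030451A03Rik*, was at 73.3, 82.3 and 93.9 CPM in *M*-cKO and at 174, 168 and 158 CPM in *F*-cKO (log2 fold change -1.01 ± 0.09, edgeR adjusted *P* = 8.16e-05). *Fabp7*, the brain lipid-binding protein, was at 387, 386 and 382 CPM compared with 605, 556 and 514 CPM (-0.55 ± 0.07, edgeR adjusted *P* = 0.000630). The Ctrl libraries exceeded both knockouts, at 233 to 295 CPM of *Tnc* and 659 to 829 CPM of *Fabp7*. *Sox2*, a transcription factor of neural stem cells that overlaps *Sox2ot*, went the other way, at 194, 191 and 180 CPM in *M*-cKO and at 141, 143 and 133 CPM in *F*-cKO (0.43 ± 0.06), with Ctrl lowest at 88.9 to 109 CPM. The radial glia genes thus did not move as a block. Of 11 intermediate progenitor markers, 1 was higher (9.09%) and 2 lower (18.2%), near the shares of all genes tested. None was higher without *M*-cKO replicate 1, *M*-cKO replicate 3, *F*-cKO replicate 1 or *F*-cKO replicate 2. None was lower without *M*-cKO replicate 1, *M*-cKO replicate 2 or *F*-cKO replicate 2, 1 was without *F*-cKO replicate 3, and 5 were without *F*-cKO replicate 1.

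Among genes of cell division calls were made only for lower levels in *M*-cKO, apart from 1 higher mitosis gene without *F*-cKO replicate 3, and most of the genes did not pass. Of 23 genes of mitosis and the kinetochore, 11 were lower in *M*-cKO than in *F*-cKO (47.8%, beside 14.3% of all genes tested) and none higher, with a median log2 fold change of -0.28, and 11 were also called lower without *F*-cKO replicate 2, where 7.7% of all genes were. *Top2a*, which untangles DNA in dividing cells, was at 167, 178 and 171 CPM in *M*-cKO and at 240, 232 and 273 CPM in *F*-cKO (log2 fold change -0.54 ± 0.07, edgeR adjusted *P* = 0.000783). *Kif20b*, a kinesin of cytokinesis (-0.66 ± 0.10), *Ndc80*, which ties kinetochores to microtubules (-0.66 ± 0.11), and the cyclin *Ccna2*, which overlaps *Exosc9* (-0.51 ± 0.08), were lower as well. Summed over the mitosis genes, *M*-cKO libraries held 1239 to 1260 CPM and *F*-cKO libraries 1410 to 1721 CPM, and both exceeded the Ctrl libraries at 715 to 943 CPM. The Ctrl sums thus lay on the far side of *M*-cKO from *F*-cKO. Of 25 genes of DNA replication, 6 were lower (24.0%) and none higher (median -0.15, -0.22 to -0.09), and lower calls were 3 without *F*-cKO replicate 2 or *F*-cKO replicate 3, 1 without *M*-cKO replicate 2 and 0 without *M*-cKO replicate 1.

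Markers of projection neurons included many genes lower in *M*-cKO. Of 10 upper-layer markers, 6 were lower (60.0%, beside 14.3% of all genes tested) and none higher, with a median log2 fold change of -0.36, and 5 or 6 were called lower with 1 library left out, with 1 higher without *F*-cKO replicate 1. *Unc5d*, a netrin receptor, was at 49.4, 56.5 and 52.2 CPM in *M*-cKO and at 84.9, 90.2 and 95.0 CPM in *F*-cKO (log2 fold change -0.78 ± 0.07, edgeR adjusted *P* = 0.000109), with Ctrl between them at 67.2 to 75.4 CPM. *Inhba*, a subunit of activin (-1.33 ± 0.18), and the transcription factor *Pou3f2* (-0.52 ± 0.09) were lower too, whereas *Cux2* stood at 0.01 ± 0.07 and was not called. Of 9 deep-layer markers, 5 were lower (55.6%) and 1 higher (11.1%; median -0.31), 2 were lower without *M*-cKO replicate 2 and 3 without *F*-cKO replicate 2, and none was higher without *M*-cKO replicate 1, *M*-cKO replicate 2, *F*-cKO replicate 2 or *F*-cKO replicate 3. *Ldb2*, a cofactor of LIM domain proteins, was at 38.6, 43.6 and 41.4 CPM in *M*-cKO and at 60.3, 58.7 and 57.1 CPM in *F*-cKO (-0.52 ± 0.07), and the transcription factor *Sox5* differed by -0.34 ± 0.08. None of the 6 markers of Cajal-Retzius neurons was called, and 1 was lower without *F*-cKO replicate 1. In such whole-tissue libraries, fewer cells of a type and less RNA per cell cannot be told apart.

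Markers of interneurons and of the ganglionic eminences, where *Emx1*-Cre does not act, were called only as higher in *M*-cKO. Of 14 such genes 11 were higher in *M*-cKO (78.6%, beside 13.1% of all genes tested), 3 were not called and none was lower, with a median log2 fold change of 0.60, and 7 were called higher without *F*-cKO replicate 2, where 8.38% of all genes were. *Gad1*, which makes GABA and overlaps *Gad1os*, was at 84.5, 82.2 and 63.5 CPM in *M*-cKO and at 53.6, 48.2 and 41.1 CPM in *F*-cKO (log2 fold change 0.68 ± 0.12, edgeR adjusted *P* = 0.00287). *Lhx6*, a transcription factor of interneurons from the medial eminence, was at 113, 103 and 102 CPM compared with 85.9, 73.3 and 70.4 CPM (0.46 ± 0.08). The vesicular GABA transporter *Slc32a1*, which overlaps *Gm14204*, was also higher (0.77 ± 0.15). The sums of the 14 genes spread within each group, from 902 to 1132 CPM in *M*-cKO and from 593 to 806 CPM in *F*-cKO, and stood at 692 to 703 CPM in Ctrl. Of 12 markers of striatal projection neurons, 4 were higher (33.3%) and 1 lower (8.33%; median 0.78), and the summed CPM of *M*-cKO replicate 3 lay within the *F*-cKO range. Higher calls among the striatal markers were 1 without *M*-cKO replicate 2 or *F*-cKO replicate 2, 2 without *M*-cKO replicate 1 or *F*-cKO replicate 3, 7 without *M*-cKO replicate 3 and 9 without *F*-cKO replicate 1, and none was lower without *M*-cKO replicate 1, *M*-cKO replicate 3, *F*-cKO replicate 1 or *F*-cKO replicate 2. The part that the extent of the dissection had in these differences was not tested.

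**Figure D3:**
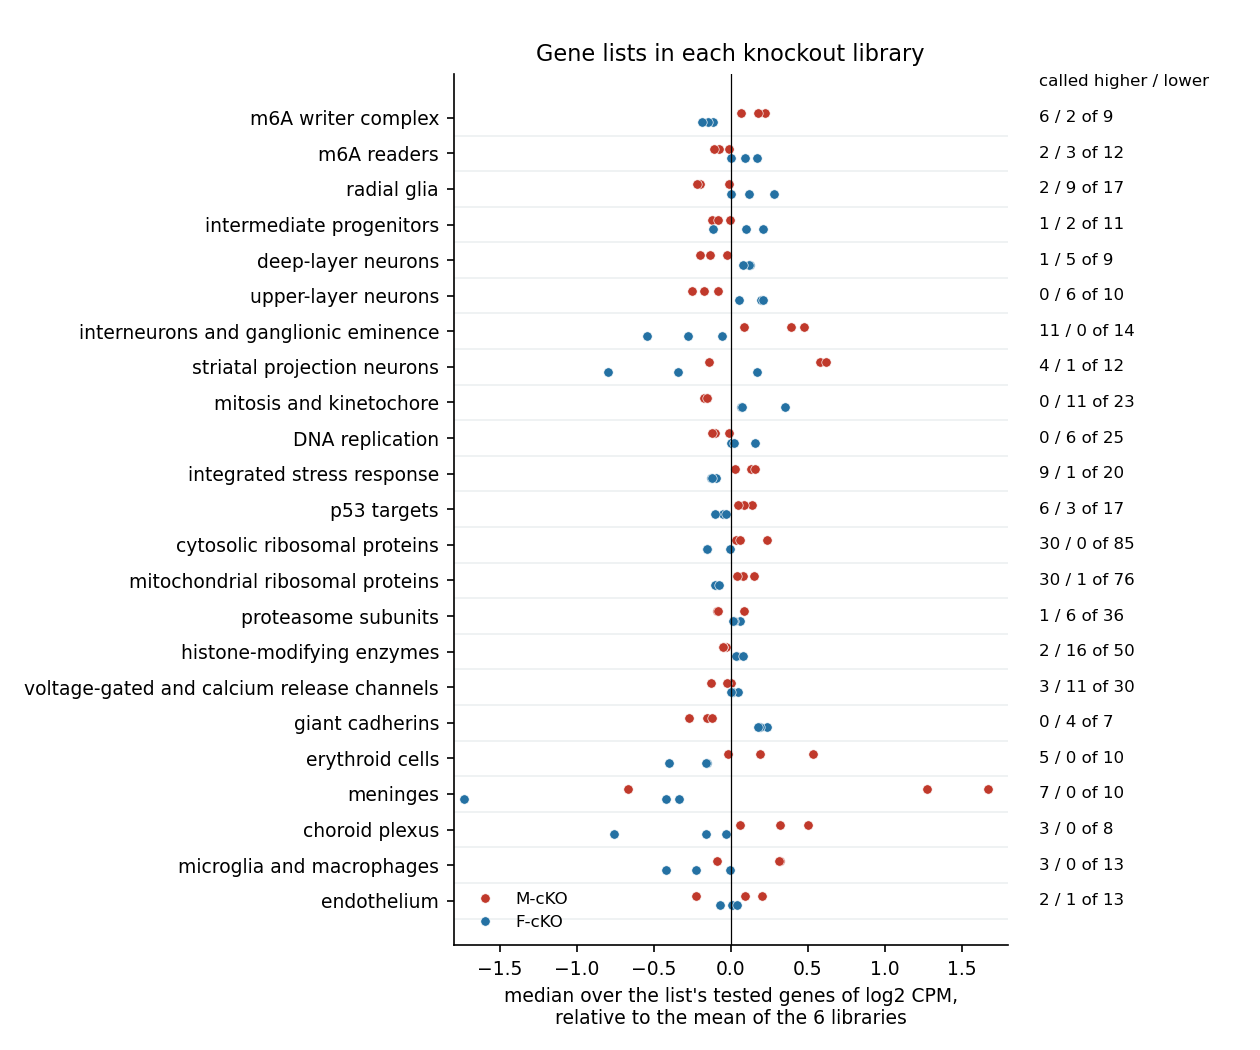
For each of 23 gene lists, the horizontal position of each knockout library is the median over the tested genes of log2 CPM relative to the mean of the 6 libraries, with numbers at the right for genes called higher and lower in *M*-cKO. The writer complex, interneuron markers and mitochondrial ribosomal proteins lie to the right in all *M*-cKO libraries and mitosis genes and giant cadherins to the left, whereas meningeal markers spread most within a group.

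Targets of stress pathways differed in part. In the integrated stress response, translation of the transcription factor *Atf4* rises, and *Atf4* binds C/EBP-ATF response elements in promoters of genes of amino acid uptake and synthesis. Of 20 genes of this response tested, 9 were higher (45%, beside 13.1% of all genes tested) and 1 lower (5.0%, beside 14.3%) in *M*-cKO, with a median log2 fold change of 0.20. *Pck2*, the mitochondrial phosphoenolpyruvate carboxykinase, was at 28.1, 27.1 and 29.0 CPM in *M*-cKO and at 18.5, 17.4 and 18.7 CPM in *F*-cKO (log2 fold change 0.61 ± 0.09, edgeR adjusted *P* = 0.000927). Without *F*-cKO replicate 2, where 8.38% of all genes were called higher, only 3 genes of the response were, namely *Pck2*, the amino acid transporter *Slc7a5* (0.34 ± 0.07 with all libraries) and *Sesn2*, which senses leucine (0.65 ± 0.16). Without *M*-cKO replicate 2, 5 were called higher. Lower calls were 2 without *M*-cKO replicate 3 and 0 without *M*-cKO replicate 1, *M*-cKO replicate 2, *F*-cKO replicate 2 or *F*-cKO replicate 3. *Atf4* itself (0.16 ± 0.07) and *Ddit3* (-0.15 ± 0.11) were not called.

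The core of the C/EBP-ATF response element, written TGATGNAA, was searched on both strands. It was present in the promoter windows of 5 of 18 genes of the response that were tested and have a window (27.8%). It was in 3.97% of all 32851 RefSeq windows. Counted by gene, among genes with a window, 2.72% of those tested and 2.48% of those called higher had a match. The list was made of known genes of this response, so its higher share follows from that choice and is no result of these data. Among the tested genes with a match, *Atf3* was not called. The windows of *Nupr1* and *Trib3*, which belong to the list but did not pass the filter on low counts, also matched. Each window runs from 250 bases before to 50 after the annotated start (GRCm38.p6). The windows of the 4 called genes with a match are shown because they carry the element beside the measured difference, and a match describes the letters only. *Pck2* has its window at chr14:55540016-55540315 (plus strand), *Chac1* at chr2:119350992-119351291 (plus strand), *Asns* at chr6:7693160-7693459 (minus strand) and *Slc7a11* at chr3:50443564-50443863 (minus strand). Each is written in the direction of the gene, and capitals mark the matches on either strand.
Pck2: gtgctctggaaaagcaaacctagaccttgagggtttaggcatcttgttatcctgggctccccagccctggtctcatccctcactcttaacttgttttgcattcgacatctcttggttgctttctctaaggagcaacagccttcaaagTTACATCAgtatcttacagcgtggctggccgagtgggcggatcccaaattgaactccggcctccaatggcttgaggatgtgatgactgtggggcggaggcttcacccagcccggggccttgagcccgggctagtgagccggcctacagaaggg
Chac1: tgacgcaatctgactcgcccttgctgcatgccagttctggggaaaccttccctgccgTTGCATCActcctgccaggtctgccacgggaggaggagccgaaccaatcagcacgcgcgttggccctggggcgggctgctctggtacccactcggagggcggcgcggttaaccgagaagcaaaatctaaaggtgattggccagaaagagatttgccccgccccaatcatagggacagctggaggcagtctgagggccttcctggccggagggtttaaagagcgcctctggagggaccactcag
Asns: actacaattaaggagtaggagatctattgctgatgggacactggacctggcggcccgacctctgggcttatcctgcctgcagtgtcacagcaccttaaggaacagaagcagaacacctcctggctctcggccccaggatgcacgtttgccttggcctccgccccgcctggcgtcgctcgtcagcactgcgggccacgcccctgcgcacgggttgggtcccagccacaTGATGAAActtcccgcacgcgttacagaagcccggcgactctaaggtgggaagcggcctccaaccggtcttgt
Slc7a11: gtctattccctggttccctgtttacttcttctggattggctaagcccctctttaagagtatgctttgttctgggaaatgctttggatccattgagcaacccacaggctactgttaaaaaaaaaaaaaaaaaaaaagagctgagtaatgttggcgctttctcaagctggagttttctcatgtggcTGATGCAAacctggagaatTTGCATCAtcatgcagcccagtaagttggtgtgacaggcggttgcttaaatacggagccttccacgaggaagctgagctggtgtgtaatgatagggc
The match lay 103 bases before the start in *Pck2*, 193 in *Chac1* and 23 in *Asns*, and the first of the 2 in *Slc7a11* lay 66 bases before it. Beside the 0.61 of *Pck2*, the log2 fold changes were 0.73 ± 0.23 for *Chac1*, 0.36 ± 0.11 for the asparagine synthetase *Asns* and 1.03 ± 0.34 for the cystine transporter *Slc7a11*. Without *F*-cKO replicate 2 the edgeR adjusted *P* was 0.00722 for *Pck2*, 0.0994 for *Chac1*, 0.0620 for *Asns* and 0.142 for *Slc7a11*, so *Pck2* alone of the 4 kept its call. *M*-cKO replicate 1, at 3.09 CPM of *Slc7a11*, lay within the *F*-cKO range of 2.46 to 3.66 CPM, and the other *M*-cKO libraries were at 8.62 and 8.08 CPM.

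Targets of p53, which responds to DNA damage, were called higher in 6 of 17 cases (35.3%, beside 13.1% of all genes tested) and lower in 3 (17.6%, near the 14.3% of all genes; median 0.21, 0.13 to 0.24), with 1 lower without *M*-cKO replicate 1. *Phlda3*, an inhibitor of Akt signalling, was at 16.7, 14.5 and 17.8 CPM in *M*-cKO and at 7.60, 6.45 and 5.16 CPM in *F*-cKO (log2 fold change 1.34 ± 0.16, edgeR adjusted *P* = 0.000374). *Cdkn1a*, the cell cycle inhibitor p21, was at 21.0, 20.5 and 17.0 CPM in *M*-cKO and at 11.4, 10.3 and 11.7 CPM in *F*-cKO (0.79 ± 0.12, edgeR adjusted *P* = 0.00125). For both genes the Ctrl libraries were at or below 10.3 CPM, nearer to *F*-cKO. The nuclease *Aen* was higher as well (0.37 ± 0.07), *Trp53inp1* was lower (-0.44 ± 0.08), and *Mdm2*, the ligase that degrades p53, stood at -0.16 ± 0.07 and was not called.

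A minority of the ribosomal protein genes passed the test, nearly all of them higher in *M*-cKO. Of 85 genes of the cytosolic ribosome, 30 were higher (35.3%, beside 13.1% of all genes tested) and none lower, with a median log2 fold change of 0.20, and higher calls were 17 without *F*-cKO replicate 2 and 49 without *F*-cKO replicate 3. *Rplp1*, a protein of the ribosomal stalk, was at 838, 842 and 955 CPM in *M*-cKO and at 630, 621 and 634 CPM in *F*-cKO (log2 fold change 0.47 ± 0.07, edgeR adjusted *P* = 0.00116), with Ctrl between them at 733 to 759 CPM. Copies of ribosomal protein genes elsewhere in the genome may share reads with them. Of 76 genes of the mitochondrial ribosome, 30 were higher (39.5%) and 1 lower (1.32%; median 0.15), and 24 to 30 were called higher with 1 library left out. *Mrps34* was at 47.0, 46.3 and 50.6 CPM in *M*-cKO and at 22.1, 25.8 and 23.3 CPM in *F*-cKO (1.01 ± 0.08), and *Mrps2*, which overlaps *1700007K13Rik*, differed by 0.81 ± 0.06 and *Mrpl14*, which overlaps *Tmem63b*, by 0.85 ± 0.08. Summed over the mitochondrial ribosomal proteins, *M*-cKO libraries held 3104 to 3321 CPM, *F*-cKO libraries 2681 to 2697 CPM and Ctrl libraries 2855 to 2931 CPM, in between. None of the 13 proteins encoded by the mitochondrial genome was called, but 2 were higher and 2 lower without *F*-cKO replicate 1, and 1 was higher and 1 lower without *F*-cKO replicate 3. Of 36 proteasome subunits, 6 were lower (16.7%, near the 14.3% of all genes tested) and 1 higher (2.78%; median -0.06, -0.12 to -0.02), and 10 were lower without *M*-cKO replicate 3.

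Histone-modifying enzymes were more often called lower than higher in *M*-cKO. Of 50 histone-modifying enzymes, 16 were lower (32.0%, beside 14.3% of all genes tested) and 2 higher (4.0%, beside 13.1%; median -0.08), and 10 were lower without *M*-cKO replicate 1, where 8.69% of all genes were. *Ezh2*, the methyltransferase of the Polycomb complex, was at 136, 150 and 142 CPM in *M*-cKO and at 196, 205 and 235 CPM in *F*-cKO (log2 fold change -0.59 ± 0.08, edgeR adjusted *P* = 0.000674). The acetyltransferase *Kat6b* (-0.51 ± 0.07) and the deacetylase *Hdac2* (-0.41 ± 0.06) were lower, and *Setdb1*, a methyltransferase that silences repeats and whose gene overlaps *Cers2*, was higher (0.47 ± 0.07). Of 33 Zbtb genes, which encode transcription factors, 11 were higher (33.3%) and 4 lower (12.1%; median 0.14), led by *Zbtb22* at 68.8, 67.4 and 72.1 CPM in *M*-cKO and 42.0, 37.0 and 41.2 CPM in *F*-cKO (0.78 ± 0.07). Higher calls among Zbtb genes were 7 without *M*-cKO replicate 1 or *F*-cKO replicate 1, and lower calls were 2 without *F*-cKO replicate 1, 1 without *M*-cKO replicate 1 and 0 without *M*-cKO replicate 2, *M*-cKO replicate 3 or *F*-cKO replicate 2. Of 329 Zfp zinc finger genes, 36 were higher (10.9%) and 58 lower (17.6%), near the 13.1% and 14.3% of all genes tested, and lower calls were 27 without *F*-cKO replicate 2, 32 without *M*-cKO replicate 3, 37 without *F*-cKO replicate 3 and 38 without *M*-cKO replicate 2. *Zfp950*, which overlaps *Grk5*, was at 12.3, 12.3 and 9.99 CPM in *M*-cKO and at 22.3, 27.1 and 31.4 CPM in *F*-cKO (-1.24 ± 0.14).

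Membrane proteins of neurons and progenitors made up several further groups. Of 7 giant cadherins, 4 were lower in *M*-cKO (57.1%, beside 14.3% of all genes tested) and none higher (median -0.33), and 4 were called lower whichever library was left out. *Celsr1*, a cadherin of planar cell polarity, was at 108, 103 and 149 CPM in *M*-cKO and at 233, 274 and 296 CPM in *F*-cKO (log2 fold change -1.16 ± 0.14, edgeR adjusted *P* = 0.000350). *Fat4*, which overlaps *C230034O21Rik* (-0.59 ± 0.06), *Fat3* (-0.80 ± 0.09) and *Celsr2* (-0.33 ± 0.07) were the others, and for all 4 the Ctrl mean was nearer to *M*-cKO than to *F*-cKO. Of 30 voltage-gated and calcium release channels, 11 were lower (36.7%) and 3 higher (10%; median -0.14, -0.15 to -0.06), and 6 were lower without *F*-cKO replicate 2. *Ryr1*, a calcium release channel that overlaps *Gm26604*, was at 14.9, 15.3 and 11.9 CPM in *M*-cKO and at 33.7, 51.6 and 52.7 CPM in *F*-cKO (-1.72 ± 0.17, edgeR adjusted *P* = 0.000123), with Ctrl at 52.7 to 77.0 CPM. The calcium channel *Cacna1e* was lower as well (-0.78 ± 0.09).

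Of 36 glutamate receptor subunits and postsynaptic scaffolds, 11 were higher (30.6%, beside 13.1% of all genes tested) and 6 lower (16.7%, near the 14.3% of all genes; median 0.06, -0.03 to 0.13), with 7 higher without *M*-cKO replicate 1 or *M*-cKO replicate 2 and 10 lower without *F*-cKO replicate 3. *Dlgap3*, a scaffold of the postsynaptic density, was at 97.1, 91.7 and 105 CPM in *M*-cKO and at 54.3, 52.0 and 35.2 CPM in *F*-cKO (log2 fold change 1.04 ± 0.13, edgeR adjusted *P* = 0.000608). *Gria2*, a subunit of AMPA receptors, was at 263, 290 and 199 CPM in *M*-cKO and at 405, 489 and 558 CPM in *F*-cKO (-0.96 ± 0.14, edgeR adjusted *P* = 0.00102), and *Gria3* was lower as well (-0.55 ± 0.08). Of 20 genes of presynaptic release, 2 were lower (10%, beneath the 14.3% of all genes tested) and none higher, with 1 higher without *M*-cKO replicate 3 or *F*-cKO replicate 1. The lower genes were the SNARE protein *Snap25* (-0.47 ± 0.06) and the glutamate transporter *Slc17a6* (-0.82 ± 0.13).

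In signalling pathways of progenitors, calls went both ways, beside 13.1% higher and 14.3% lower over all genes tested. Of 18 Notch pathway genes, 4 were higher (22.2%) and 3 lower (16.7%; median -0.01, -0.10 to 0.12), and lower calls were 1 without *M*-cKO replicate 1 or *F*-cKO replicate 2 and 0 without *M*-cKO replicate 2, *M*-cKO replicate 3 or *F*-cKO replicate 3. *Hey1*, a transcriptional target of Notch, was at 42.3, 48.8 and 51.6 CPM in *M*-cKO and at 32.1, 32.2 and 37.3 CPM in *F*-cKO (log2 fold change 0.48 ± 0.10, edgeR adjusted *P* = 0.00544), and the coactivator *Maml1* (0.33 ± 0.07) and the ligand *Jag2* (0.36 ± 0.09) were higher. Of 36 Wnt pathway genes, 5 were higher (13.9%) and 7 lower (19.4%; median -0.04, -0.06 to 0.08), with 3 higher without *M*-cKO replicate 1, *M*-cKO replicate 2 or *F*-cKO replicate 2 and 4 lower without *M*-cKO replicate 1. The Frizzled receptors split, with *Fzd2* at 95.1, 105 and 101 CPM in *M*-cKO and 67.1, 72.8 and 80.4 CPM in *F*-cKO (0.44 ± 0.08), whereas *Fzd1* was at 62.4, 65.7 and 69.1 CPM compared with 90.6, 89.5 and 94.9 CPM (-0.49 ± 0.07). The transcriptional effector of the pathway, *Ctnnb1*, was lower, at 857, 805 and 874 CPM compared with 1083, 1020 and 1074 CPM (-0.34 ± 0.06).

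Of 19 imprinted genes, 6 were higher (31.6%, beside 13.1% of all genes tested) and 4 lower (21.1%, beside 14.3%; median 0.17, 0.10 to 0.21), and 3 were higher without *M*-cKO replicate 2, where 9.17% of all genes were. *Nnat*, which is expressed from the paternal allele and lies within an intron of *Blcap*, was at 2606, 2339 and 2266 CPM in *M*-cKO and at 1822, 1794 and 1623 CPM in *F*-cKO (log2 fold change 0.45 ± 0.08, edgeR adjusted *P* = 0.00214). *Plagl1*, a zinc finger gene of the same class, was at 68.3, 62.6 and 64.4 CPM in *M*-cKO and at 102, 126 and 164 CPM in *F*-cKO (-1.02 ± 0.14, edgeR adjusted *P* = 0.000702), with Ctrl at 47.6 to 69.0 CPM, near *M*-cKO. None of 10 immediate early genes was called, with 1 lower without *M*-cKO replicate 3, and 1 replication-dependent histone gene was higher (5.0%) and 2 lower (10%) of 20, both under the shares of all genes tested.

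Markers of cell types that a dissection can bring along were counted in the same way, beside the 13.1% of all genes tested that were called higher. Of 10 meningeal markers 7 were called higher in *M*-cKO (70.0%; median 1.69), but only 1 of the 10 had groups that did not overlap, compared with 43.7% of all genes tested. Their summed level was 60.3 CPM in *M*-cKO replicate 1 and 256 and 320 CPM in the other *M*-cKO libraries, compared with 29.5 to 84.1 CPM in *F*-cKO and 123 to 279 CPM in Ctrl. *Aldh1a2*, which makes retinoic acid in the meninges, was at 3.05, 8.22 and 11.0 CPM in *M*-cKO and at 2.18, 0.985 and 2.02 CPM in *F*-cKO (log2 fold change 2.09 ± 0.44, edgeR adjusted *P* = 0.00657). Only 2 meningeal markers were called higher without *M*-cKO replicate 2, *M*-cKO replicate 3 or *F*-cKO replicate 2. Of 10 erythroid markers 5 were higher (50.0%), with *Hbb-bs* at 95.9, 124 and 123 CPM in *M*-cKO and 84.2, 75.0 and 78.6 CPM in *F*-cKO, and 2 were called without *F*-cKO replicate 2 and 3 without *M*-cKO replicate 3. Of 13 microglia and macrophage markers 3 were higher (23.1%), with 0 without *M*-cKO replicate 3 or *F*-cKO replicate 2, 1 without *M*-cKO replicate 2 or *F*-cKO replicate 3 and 5 without *M*-cKO replicate 1. Of 8 choroid plexus markers 3 were higher (37.5%), with 1 without *M*-cKO replicate 2, *M*-cKO replicate 3 or *F*-cKO replicate 2 and 5 without *F*-cKO replicate 1. Of 13 endothelial markers 2 were higher (15.4%) and 1 lower (7.69%), near or under the shares of all genes, with 0 higher without *M*-cKO replicate 2, *M*-cKO replicate 3 or *F*-cKO replicate 2 and 1 without *F*-cKO replicate 1. Liver markers stood at 3.96 CPM in sum or below in every library. The part of these cells in the differences of other genes was not tested.

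The wild-type libraries, which took no part in the calls, had a mean between the knockouts for 2764 of the 4599 called genes (60.1%), compared with 35.5% of all genes tested. Called genes were picked for a gap between the knockouts, and a wider gap takes in another mean more often. The excess over all genes is thus no result about Ctrl. For 723 called genes (15.7%) the Ctrl mean lay above both knockouts and for 1112 (24.2%) below both. Among genes higher in *M*-cKO the Ctrl mean was nearer to *F*-cKO for 62.8%, and among genes lower in *M*-cKO for 52.0%, beside 52.1% over all genes tested. *Aspdh*, *Mrpl43* and *Ythdf2* had Ctrl levels near those of *F*-cKO, whereas *Celsr1* and *Plagl1* had Ctrl levels near those of *M*-cKO.

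Differences followed transcript length. Protein-coding genes were divided into 5 bins of equal size by the transcript length implied by the deposited counts and FPKM values. From the shortest to the longest bin the median log2 fold change was 0.14, 0.06, 0.02, -0.04 and -0.13. In the shortest bin, up to 2609 bases, *M*-cKO had 22.8% of genes above and 4.86% below *F*-cKO by call, and in the longest, from 7847 bases, 7.29% above and 31.4% below. Relative to the mean of the 6 libraries, the median log2 level of the longest bin was -0.04, -0.03 and -0.11 for the *M*-cKO libraries, whereas the *F*-cKO libraries stood at 0.04, 0.07 and 0.08, and the Ctrl libraries, at -0.03, -0.07 and -0.06, were on the *M*-cKO side. Across all genes tested, Spearman's rho of length and log2 fold change was -0.18, a description across 16802 genes, which share the libraries and are not independent. The giant cadherins have long transcripts and the ribosomal proteins short ones, so these lists lie at opposite ends of the length range. Integrity of the RNA and fragment length of the libraries are not given in the sources used here.

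**Figure D4:**
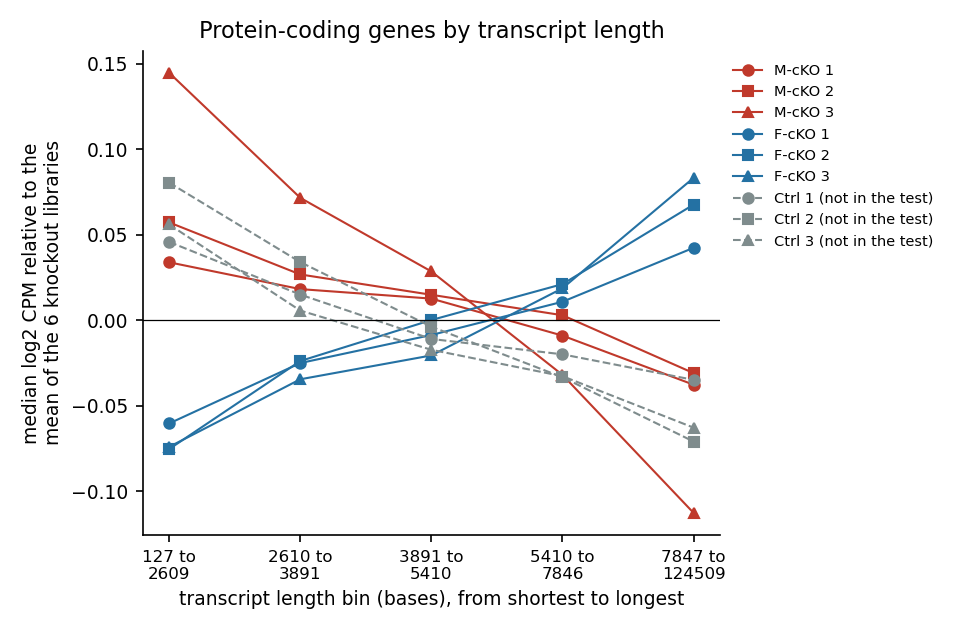
Median over protein-coding genes of log2 CPM relative to the mean of the 6 knockout libraries, in 5 bins of transcript length from shortest to longest, with 1 line per RNA-seq library; Ctrl, dashed, was not in the test. The *M*-cKO and Ctrl lines all fall from left to right and the *F*-cKO lines all rise.

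The calls were spread over the genome, with between 24.8% and 31.3% of the genes tested called on each autosome and the X chromosome. Within 10 Mb of *Mettl3*, 53 of 171 genes (31.0%) were called, and within 10 Mb of *Fto* 38 of 149 (25.5%), both near the 27.4% of all genes. *Sall2*, a zinc finger gene next to *Mettl3* (chr14:52311177-52328670), was at 138, 130 and 131 CPM in *M*-cKO and at 82.6, 79.7 and 78.5 CPM in *F*-cKO (log2 fold change 0.72 ± 0.06, edgeR adjusted *P* = 7.44e-05). *Zfp423*, on the same chromosome as *Fto* (chr8:87661810-87962053), was at 72.2, 73.5 and 72.3 CPM in *M*-cKO and at 44.8, 45.3 and 43.8 CPM in *F*-cKO (0.69 ± 0.06, edgeR adjusted *P* = 8.16e-05). The groups did not overlap for either gene, and the Ctrl libraries lay below *F*-cKO for both.

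The Ribo-seq libraries of the same genotypes give a readout that the RNA-seq comparison did not use. *F*-cKO replicate 2 of Ribo-seq stood apart, with 10973699 counts, fewer than any other library. *Ptprz1* was at 86.2, 941 and 81.7 CPM in the *F*-cKO Ribo-seq libraries. The biological coefficient of variation was 0.413, and 0.282 without that library. No gene of 14262 was called by edgeR (0%), where 1154 had an unadjusted *P* below 0.05 and the smallest adjusted *P* was 0.107, whereas DESeq2 called 173 genes higher and 27 lower. edgeR called 5 genes without *F*-cKO replicate 2 and 3 without *M*-cKO replicate 3.

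The direction of the Ribo-seq difference matched that of RNA-seq for 3449 of the 4143 called genes measured in both assays (83.2%), compared with 69.4% of all 13162 genes measured in both. The share was 74.2% for genes higher in *M*-cKO, beside 60.0% of all genes with a log2 fold change above 0. It was 91.5% for genes lower in *M*-cKO, beside 78.5% of all genes with a log2 fold change below 0. Without *F*-cKO replicate 2 of Ribo-seq the shares were 84.3% for higher and 81.8% for lower genes, beside 68.4% and 68.6% of all genes with a log2 fold change above and below 0, and 83.0% over both directions, beside 68.5%. With RNA-seq calls also made without its *F*-cKO replicate 2, the shares were 90.1% for higher, 86.3% for lower and 88.3% for all 2515 called genes, beside 68.4%, 69.5% and 68.9%. Over all genes tested in Ribo-seq the median log2 fold change was -0.07, and 0.01 without *F*-cKO replicate 2. Interneuron markers had a median of 1.13, and 1.05 without that library. Mitosis genes stood at -0.23 and -0.31, radial glia markers at -0.48 and -0.16, and upper-layer markers at -0.24 and -0.18. Cytosolic ribosomal proteins, with a median of 0.20 in RNA-seq, stood at -0.07 in Ribo-seq, the median of all genes, and at -0.16 without that library. Mitochondrial ribosomal proteins, at 0.15 in RNA-seq, stood at 0.05 in Ribo-seq and at -0.06 without that library. The m6A writer list, at 0.34 in RNA-seq, stood at 0.32 and 0.11. Meningeal markers, at 1.69 in RNA-seq, stood at -1.04 and -0.57 in Ribo-seq. Giant cadherins were at -1.67 with *F*-cKO replicate 2 and at 0.18 without it, and endothelial markers at -2.52 and -0.21. By length of protein-coding genes, the Ribo-seq medians went from 0.01 in the shortest to -0.14 in the longest bin, with *F*-cKO replicate 2 included. The part of that library in this trend was not tested.

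**Figure D5:**
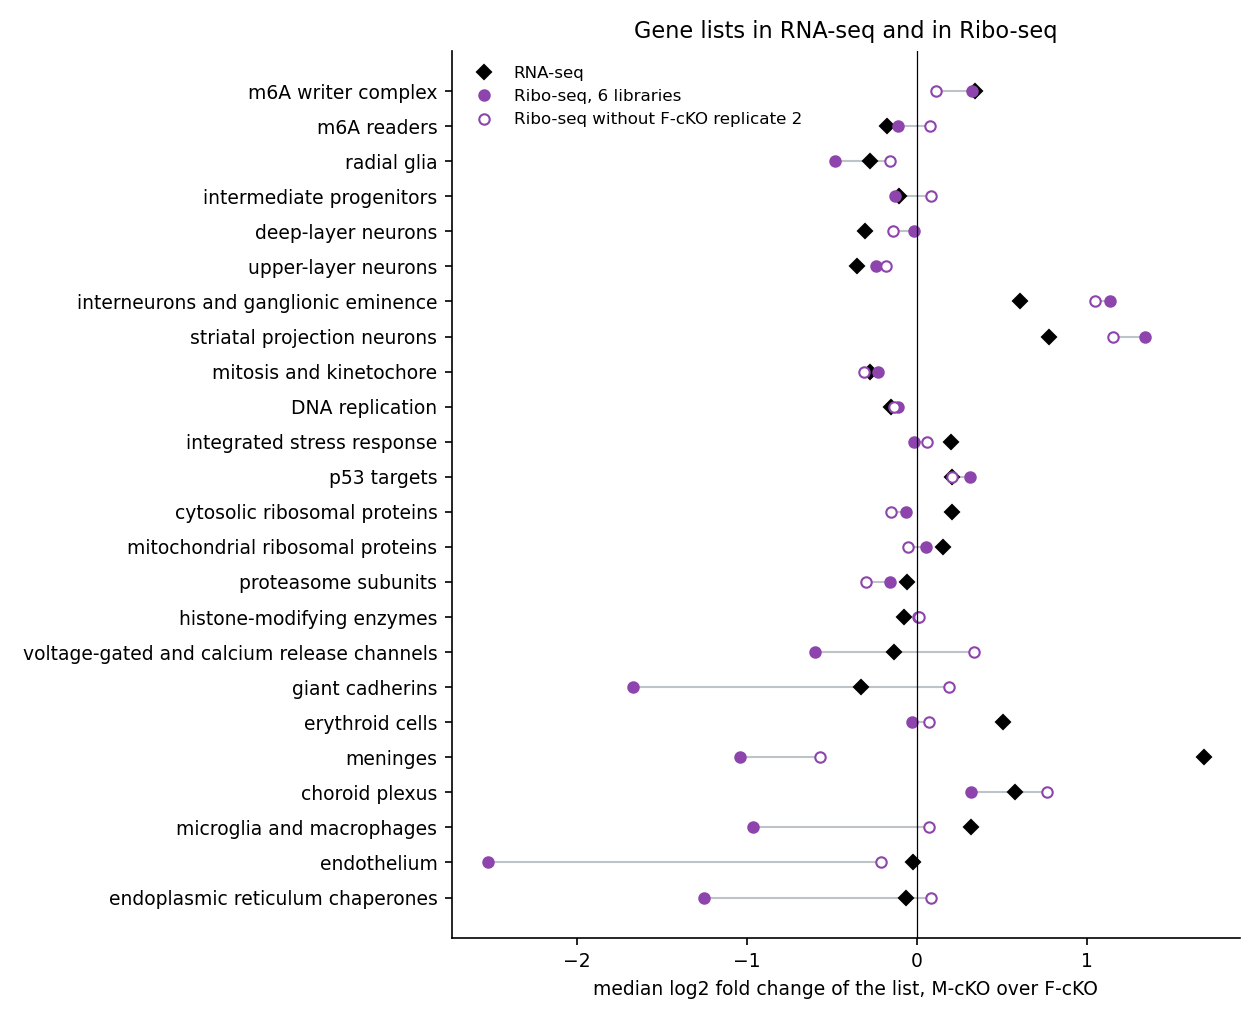
Median log2 fold change of *M*-cKO over *F*-cKO for each gene list in RNA-seq (diamonds), in the 6 Ribo-seq libraries (filled circles) and in Ribo-seq without *F*-cKO replicate 2 (open circles). The interneuron and mitosis lists keep their side of 0 in all 3, whereas several lists, giant cadherins, channels and endoplasmic reticulum chaperones among them, have a Ribo-seq median that crosses 0 when that library is left out.

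For single genes the Ribo-seq levels can be set beside the RNA-seq differences. *Rbm15* was at 129, 106 and 117 CPM of Ribo-seq in *M*-cKO and at 69.7, 48.1 and 53.9 CPM in *F*-cKO, a log2 fold change of 1.04 ± 0.19 beside 0.90 in RNA-seq. *Mrps34* was at 21.5, 26.7 and 24.0 CPM compared with 11.7, 4.91 and 9.99 CPM (1.43 ± 0.35 beside 1.01). *Cdk6* was at 38.4, 26.1 and 27.8 CPM compared with 75.2, 52.0 and 58.1 CPM (-1.01 ± 0.23 beside -0.96). In each of these genes the groups did not overlap in either assay. *Zc3h13*, lower in *M*-cKO by RNA-seq, was at 328, 328 and 337 CPM of Ribo-seq in *M*-cKO and at 354, 280 and 269 CPM in *F*-cKO (0.14 ± 0.16), where the groups overlapped. None of these genes passed the edgeR threshold in Ribo-seq.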

How the data were processed

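RNA-seq counts per gene were deposited by the authors from reads aligned with HISAT2 2.0.5 to mm10, and the submitters' processing notes also name DESeq2 1.14.1. The counting tool and its use of strand are not given in the sources used here. FPKM values deposited by the authors served only for transcript length. Ribo-seq counts were deposited by the authors after mapping with TopHat2 and counting with HTSeq, and 40490 genes blank in 8 libraries were left out, which left 14348. The deposited RPKM values were not used.

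Counts were tested in R 4.3.3 with the edgeR 4.0.16 quasi-likelihood test on the 6 knockout libraries (filterByExpr, minimum count 10 and total 15, TMM scaling) with Benjamini-Hochberg adjustment at 0.05, after the code had been tested on simulated data. DESeq2 1.42.0, other scaling, no filter, all 9 RNA-seq libraries in 1 fit, protein-coding genes only, a replicate block and leaving out each library were tried as alternatives. RNA-seq CPM values are counts over the library size with TMM scaling over all 9 RNA-seq libraries, Ctrl among them. The overlap of groups was read from these values. Ribo-seq CPM values use TMM scaling over the 6 knockout libraries. RefSeq tables (GRCm38.p6) gave symbols for 54723 of the 55153 genes, types and positions for 38623, and the promoter windows.

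Genes were named by a rule. It took *Mettl3* and *Fto*, the 8 genes in each direction with the smallest p and the 8 with the largest fold at a mean of at least 1 CPM in the higher group (called, groups not overlapping), up to 4 called genes of each list by p, and genes near *Mettl3* and *Fto*. The remaining m6A genes, *Cux2*, *Atf3*, *Atf4*, *Ddit3*, *Mdm2*, *Chac1*, *Asns*, *Slc7a11*, *Nupr1*, *Trib3*, *Xist*, *Ddx3y* and *Hbb-y* were named after their values were seen. Some genes that the rule picks are not reported here. Members and lists were chosen with earlier results of these data known.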

Additional observations from a re-analysis of the deposited data

How the results depend on the processing

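The RNA-seq comparison called 4599 genes, and 4421 with DESeq2, 4569 with RLE size factors, 5272 with no filter on low counts, 4977 with all 9 libraries in 1 fit and 4446 among protein-coding genes only. Calls ranged from 2767 to 4566 with 1 library left out, higher calls from 1442 to 2342 and lower calls from 1325 to 2224. The fewest calls, 2767, were made without *F*-cKO replicate 2, and lower calls were also more than 1.5 times fewer without *M*-cKO replicate 1 (1498) and *M*-cKO replicate 2 (1500). Fewer samples enter these fits, and what else moved the counts was not tested. Of the 174 named genes, 134 did not lose their call and none reversed under the alternatives run for them, which leave out the fit to protein-coding genes only, and DESeq2 gave no value for 6 of the 174 (161 kept and 7 lost their call with it). Ribo-seq calls, 0 with edgeR, were 200 with DESeq2 and 0 to 5 with 1 library left out, and the cause was not tested. The share of RNA-seq calls with the same direction in Ribo-seq was 83.2% and ranged from 77.3% to 83.4% with 1 Ribo-seq library left out and the RNA-seq calls kept, and it was 88.3% without *F*-cKO replicate 2 of both assays. The knockouts share replicate numbers. Deviations of same-numbered libraries from their group means correlated at -0.11, -0.07 and -0.02, and those of other pairs at -0.15 to 0.22. Deviations from means of so few libraries cannot tell whether the number pairs them. With the replicate block 3710 genes were called (1827 higher and 1883 lower), 0 in Ribo-seq, and the share was 86.5%.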
